A study of Mus musculus with 12 samples.

Results

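The subunits of the oxidative phosphorylation complexes were followed in microglia sorted from mouse brain, in 12 RNA-seq libraries from 4 groups of 3. Members were all genes with subunit names of complexes I to V (Nduf, Sdh, Uqcr, Cox4 to Cox8 and Atp5 genes, and the mt-Nd, mt-Co, mt-Cytb and mt-Atp genes of the mitochondrial genome). There were 97 such identifiers with 96 symbols among the 55401 in the count files, 84 nuclear and 13 mitochondrial. WT mice were male CX3CR1wt/wt:HDAC3loxp/loxp and miKO mice were male CX3CR1CreER/wt:HDAC3loxp/loxp. Mice of all 4 groups thus carried floxed Hdac3, and the knockout was induced with tamoxifen on 5 days in a row at 6 to 8 weeks of age. CreER sits in the Cx3cr1 gene, so that miKO mice also had 1 functional Cx3cr1 allele less than WT mice. At least 1 month later the left middle cerebral artery was occluded for 60 min (transient focal cerebral ischemia, tFCI) or the arteries were exposed without occluding it (Sham). On day 3, CD11b+ CD45int cells were sorted, and each library pooled cells from 3 to 4 hemispheres.

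The respiratory chain passes electrons from NADH (complex I) and succinate (complex II) through ubiquinone and complex III to oxygen at complex IV. Complexes I, III and IV pump protons across the inner mitochondrial membrane, and complex V, the ATP synthase, makes ATP from their return. Complex II is encoded wholly in the nucleus, whereas the other 4 complexes join nuclear subunits, made in the cytosol and imported, to core subunits that are transcribed and translated inside the organelle. The work of both genomes therefore has to be matched, and activated myeloid cells are known to shift between respiration and glycolysis.

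The mitochondrial members differed widely in counts, and their sequences are given first because some of them also occur in the nuclear genome. The nuclear genome holds a stretch copied from the mitochondrial genome at chr1:24611535-24616197 (GRCm38, 4663 bases, minus strand), annotated as 7 unprocessed pseudogenes. With at least 100 aligned bases at 95% identity or more, 7 of the 13 mitochondrial mRNAs aligned to these pseudogenes. The bases of the stretch that lie between the pseudogenes were not searched. For mt-Co2, 681 of 684 bases were identical (pseudogene Gm28661), for mt-Atp6 678 of 681 (Gm10925), for mt-Co3 783 of 784 (Gm28437) and for mt-Nd4l 294 of 297 (Gm10222). For mt-Nd3, 345 of 348 bases aligned to Gm28438 at 99.7% identity, with the single substitution T3C counted from the first base of the mitochondrial mRNA. The first 43 bases of both are printed because they hold the only base, in capitals, that tells these aligned stretches apart.

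mt-Nd3: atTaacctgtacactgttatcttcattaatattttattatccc
Gm28438: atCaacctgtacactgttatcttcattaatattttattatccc

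mt-Atp8 did not align to the pseudogenes under this rule, but whether it has a copy between them was not examined. The gene lies at chrM:7766-7969 (plus strand, 204 bases). Its last 43 bases, in capitals, are also the first bases of mt-Atp6, so that a fragment over them belongs to both genes.

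mt-Atp8: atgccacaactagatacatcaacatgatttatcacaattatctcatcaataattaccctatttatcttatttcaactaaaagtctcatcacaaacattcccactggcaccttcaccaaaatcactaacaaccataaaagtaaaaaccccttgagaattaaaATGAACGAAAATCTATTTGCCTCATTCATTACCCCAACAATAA

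Summed over the 12 libraries, mt-Nd1, mt-Co1, mt-Cytb, mt-Nd6, mt-Nd2, mt-Nd4 and mt-Nd5 had 147, 143, 130, 114, 89.2, 81.9 and 72.9 counts per base of mRNA. mt-Nd3 had 3.53, mt-Co2 1.58, mt-Atp6 1.10, mt-Co3 1.09, mt-Nd4l 0.0505 and mt-Atp8 0.00490. The 5 mRNAs with a copy over nearly their whole length were thus far below mt-Nd5 in counts per base, and the copies themselves carried 2545 counts beside 1080 for mt-Co2, 2562 beside 749 for mt-Atp6 and 4156 beside 856 for mt-Co3. By contrast, mt-Nd4 aligned to the copy over 876 of 1378 bases and mt-Co1 over 483 of 1545 (99.8% identity), and both had counts per base close to those of mt-Nd5 and mt-Nd1. Whether reads were left out because they fit both places was not tested. The levels of the 6 rare mRNAs were therefore not read as transcript levels, and the mitochondrial results rest mainly on the other 7 genes. Of these, mt-Nd6 lies on the opposite strand to mt-Nd5, and their exons overlap only at chrM:13552-13565. The library kit does not mark strand, so the strand of the reads counted for mt-Nd6 cannot be told. The ratio of mt-Nd6 to mt-Nd5 counts lay between 0.403 and 0.479 in every library. Whether mt-Nd6 counts are independent of mt-Nd5 was not tested.

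**Figure D1:**
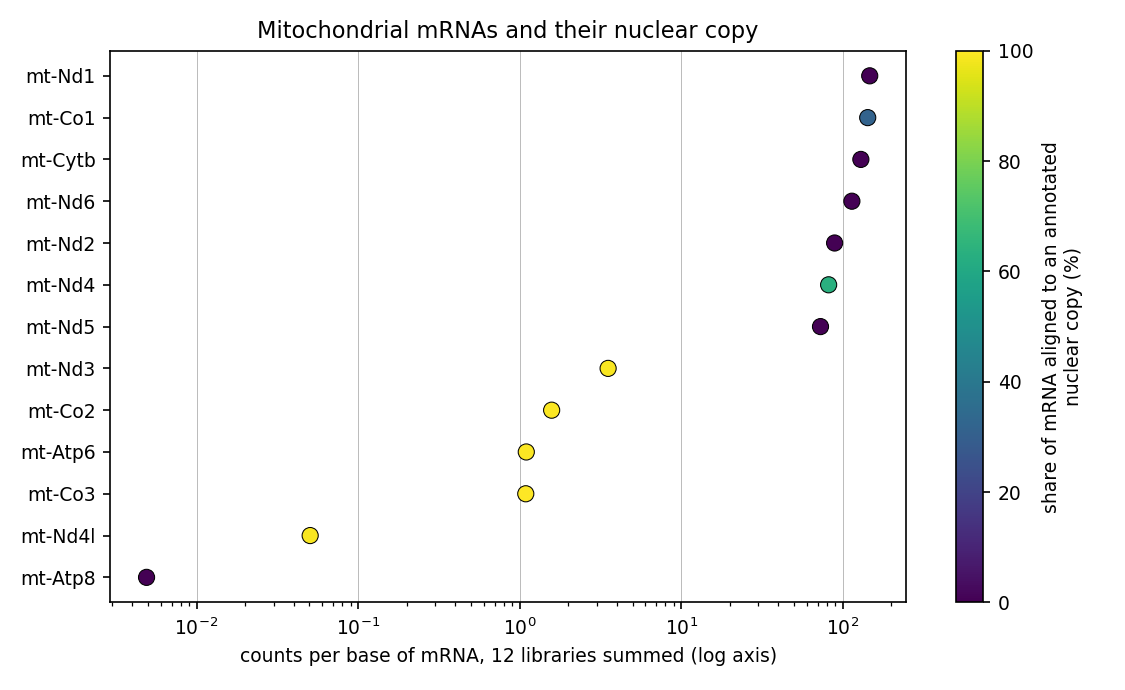
Counts per base of each of the 13 mitochondrial mRNAs (x axis, log scale, 12 libraries summed), coloured by the percentage of the mRNA that aligns to an annotated nuclear copy. mt-Co2, mt-Atp6, mt-Co3, mt-Nd3 and mt-Nd4l, which align over nearly their whole length, lie below 4 counts per base, as does mt-Atp8, while the other 7 lie above 70.

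For the nuclear members, promoters (250 bases before to 50 after the transcription start, RefSeq, GRCm38.p6) were available for 66 of 83 symbols, and the first listed start of each gene was used for counting. Motifs of 3 factors linked to respiratory genes were searched on both strands: NRF1 (GCGCATGCG), GABPA (CCGGAAGTG) and YY1 (AAGATGGCG). At least 1 of them occurred in 16 of the 66 (24.2%), against 1385 of all 27025 genes with a promoter (5.12%). The NRF1 motif was in 12.1% of members and 1.81% of all genes, the YY1 motif in 9.09% and 1.49%, and the GABPA motif in 3.03% and 2.06%. Atp5j, not counted here, carries the YY1 letters at its other listed start. The promoters of Ndufc1 and Ndufs7 carry the same YY1 letters, though Ndufc1 rose and Ndufs7 did not pass in WT-tFCI vs. WT-Sham (below), and those of Atp5k and Uqcrh show the other 2 motifs. Capitals mark the motif in each.

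Ndufc1, chr3:51408906-51409205, minus strand, YY1: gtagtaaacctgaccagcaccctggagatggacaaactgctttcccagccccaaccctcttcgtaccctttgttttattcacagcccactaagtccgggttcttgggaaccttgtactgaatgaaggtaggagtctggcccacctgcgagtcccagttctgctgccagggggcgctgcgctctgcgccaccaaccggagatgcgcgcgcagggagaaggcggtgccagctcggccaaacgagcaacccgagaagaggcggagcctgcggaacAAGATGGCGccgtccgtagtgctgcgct
Ndufs7, chr10:80249199-80249498, plus strand, YY1: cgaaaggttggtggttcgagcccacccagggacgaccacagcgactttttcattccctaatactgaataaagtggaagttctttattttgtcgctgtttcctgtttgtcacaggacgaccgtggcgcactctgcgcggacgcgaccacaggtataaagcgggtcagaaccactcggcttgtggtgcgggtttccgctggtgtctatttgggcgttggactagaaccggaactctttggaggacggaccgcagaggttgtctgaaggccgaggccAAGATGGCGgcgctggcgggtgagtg
Atp5k, chr5:108434350-108434649, minus strand, NRF1: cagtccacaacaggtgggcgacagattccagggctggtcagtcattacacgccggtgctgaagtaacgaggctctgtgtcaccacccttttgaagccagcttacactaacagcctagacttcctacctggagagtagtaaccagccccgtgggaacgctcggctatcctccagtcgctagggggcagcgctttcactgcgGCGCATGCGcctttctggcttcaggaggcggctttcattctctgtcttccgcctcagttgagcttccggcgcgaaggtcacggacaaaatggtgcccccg
Uqcrh, chr4:116075021-116075320, minus strand, GABPA: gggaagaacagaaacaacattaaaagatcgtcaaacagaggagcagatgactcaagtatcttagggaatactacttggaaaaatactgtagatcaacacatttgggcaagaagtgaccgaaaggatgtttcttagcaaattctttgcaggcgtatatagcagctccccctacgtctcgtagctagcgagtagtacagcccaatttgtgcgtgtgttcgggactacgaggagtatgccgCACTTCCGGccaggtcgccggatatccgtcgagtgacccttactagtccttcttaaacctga

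These matches are descriptions of letters in a window. Among members with a promoter entry, 14 of the 58 that rose in WT-tFCI vs. WT-Sham held a motif (24.1%), as did 2 of the 7 that were tested and did not pass (28.6%).

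Each library held between 7697864 and 9452222 counts on genes, and replicate 1 of each group was sequenced in batch 1 and replicates 2 and 3 in batch 2. Hdac3 was at 35.0 to 46.4 CPM (counts scaled to depth with TMM factors) in WT-Sham, 20.9 to 25.8 in miKO-Sham, 43.9 to 54.0 in WT-tFCI and 27.1 to 36.0 in miKO-tFCI. It was lower in miKO-Sham than in WT-Sham by a log2 fold change of -0.81 (SE 0.16, adjusted p = 0.00281) and in miKO-tFCI than in WT-tFCI by -0.71 (SE 0.16, adjusted p = 0.0127). miKO-Sham replicates 1 and 2 were nearly alike: their counts differed by a chi-square of 2.82 per gene, against 37.8 and 40.8 when either was set beside replicate 3 and 3.65 to 76.6 for pairs within the other groups. This was above sampling noise, so both were kept as libraries, but whether they came from separate mice cannot be told. Subunit results that rest on them are also given without them. Reads set aside for low alignment quality made up 4.20% in miKO-Sham replicate 2, labelled batch 2. The range was 4.06% to 4.68% in batch 1 and 3.27% to 3.79% in the other libraries of batch 2. Whether this batch label is right was not tested, and the batch term and within-batch values of miKO-Sham depend on it. All 10 microglial markers were detected. Their summed level was 24132 to 31785 CPM in WT-Sham, 20726 to 25731 in miKO-Sham, 16983 to 18850 in WT-tFCI and 8317 to 16248 in miKO-tFCI. The 10 monocyte and macrophage markers summed to 15.7 to 97.7, 62.6 to 124, 384 to 682 and 455 to 1034 CPM, and the 8 neutrophil markers to 50.8 to 817, 339 to 398, 182 to 217 and 746 to 1000.4 CPM in the same order. The 8 proliferation genes summed to 26.7 to 30.4, 44.0 to 46.1, 558 to 673 and 341 to 370 CPM. The 7 markers of border-associated macrophages summed to 96.2 to 124, 52.4 to 280, 147 to 252 and 266 to 744 CPM, and the 6 endothelial markers to 15.8 to 23.1, 10.6 to 16.5, 59.0 to 182 and 105 to 316 CPM. The 6 astrocyte markers summed to 180 to 192, 108 to 129, 164 to 264 and 195 to 525 CPM in the same order. No marker of these lists was at 0 in every library. Their part in the results below was not tested, and in bulk RNA fewer cells of a type and less RNA per cell cannot be told apart.

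Of the 97 members, 90 passed the filter on low counts, 79 nuclear and 11 mitochondrial. The 7 that failed it were Cox4i2 (0 to 13 counts per library), Ndufa4l2 (0 to 25), Cox7b2 (3 and 2 counts in WT-Sham replicates 2 and 3 and 0 in the other libraries), Cox8c and a second Atp5o identifier, both with 0 counts in every library, mt-Nd4l (15 counts in all) and mt-Atp8 (1 count). Cox4i2 is the lung form of Cox4, Cox7b2 and Cox8c are known from testis, and Ndufa4l2 is known as a hypoxia-induced relative of Ndufa4. Per kilobase of exon (FPKM, here CPM divided by the exon length in kilobases), the highest nuclear member of each complex in WT-Sham was Ndufa1 in complex I (142), Sdhd in complex II (70.1), Uqcr11 in complex III (125), Cox6a1 in complex IV (183) and Atp5b, the catalytic beta subunit of the ATP synthase, in complex V (106). Of the mitochondrial members, mt-Nd1 (689), mt-Cytb (642) and mt-Co1 (583) stood above the nuclear members of their complexes on this scale. In counts, Atp5b led the nuclear members with 7.95% of their total in WT-Sham.

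The share of all counts on genes shows both genomes in each library. In WT-Sham replicates 1 to 3, the 84 nuclear members took 0.758%, 0.569% and 0.521% of counts, and the 13 mitochondrial mRNAs 0.643%, 0.373% and 0.310%. In miKO-Sham, the nuclear shares were 0.659%, 0.681% and 0.578%, and the mitochondrial shares 1.03%, 1.07% and 0.344%. The nuclear shares of the 2 Sham groups overlapped, while the mitochondrial share was high in miKO-Sham replicates 1 and 2 alone and that of replicate 3 lay within the range of WT-Sham. In WT-tFCI, the nuclear shares were 1.28%, 1.08% and 0.992% and the mitochondrial shares 1.49%, 1.08% and 0.976%. In miKO-tFCI, the nuclear shares were 1.57%, 0.95% and 0.855% and the mitochondrial shares 1.78%, 0.943% and 0.787%. Each tFCI library was above each Sham library in its nuclear share, which was not so for the mitochondrial share of miKO mice. Wilson 95% intervals were within 0.00843 percentage points of each share and cover counting error only.

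Group means were 0.616% ± 0.125, 0.639% ± 0.0540, 1.12% ± 0.148 and 1.12% ± 0.387 for nuclear members (SD, n = 3), in the order WT and miKO after Sham surgery, then WT and miKO after tFCI. They were 0.442% ± 0.177, 0.814% ± 0.408, 1.18% ± 0.269 and 1.17% ± 0.535 for mitochondrial mRNAs. The log2 ratio of nuclear to mitochondrial counts was 0.24, 0.61 and 0.75 in WT-Sham. It was -0.65, -0.65 and 0.75 in miKO-Sham. After tFCI, the ratio was -0.22, -0.00 and 0.02 in WT mice and -0.18, 0.01 and 0.12 in miKO mice. All 6 tFCI libraries thus lay below all WT-Sham libraries in this ratio, and the mean difference was -0.60 for WT-tFCI less WT-Sham and 0.05 for miKO-tFCI less WT-tFCI. In miKO-tFCI vs. miKO-Sham the mean difference was 0.16, but the Sham replicates stood on both sides of the tFCI replicates.

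**Figure D2:**
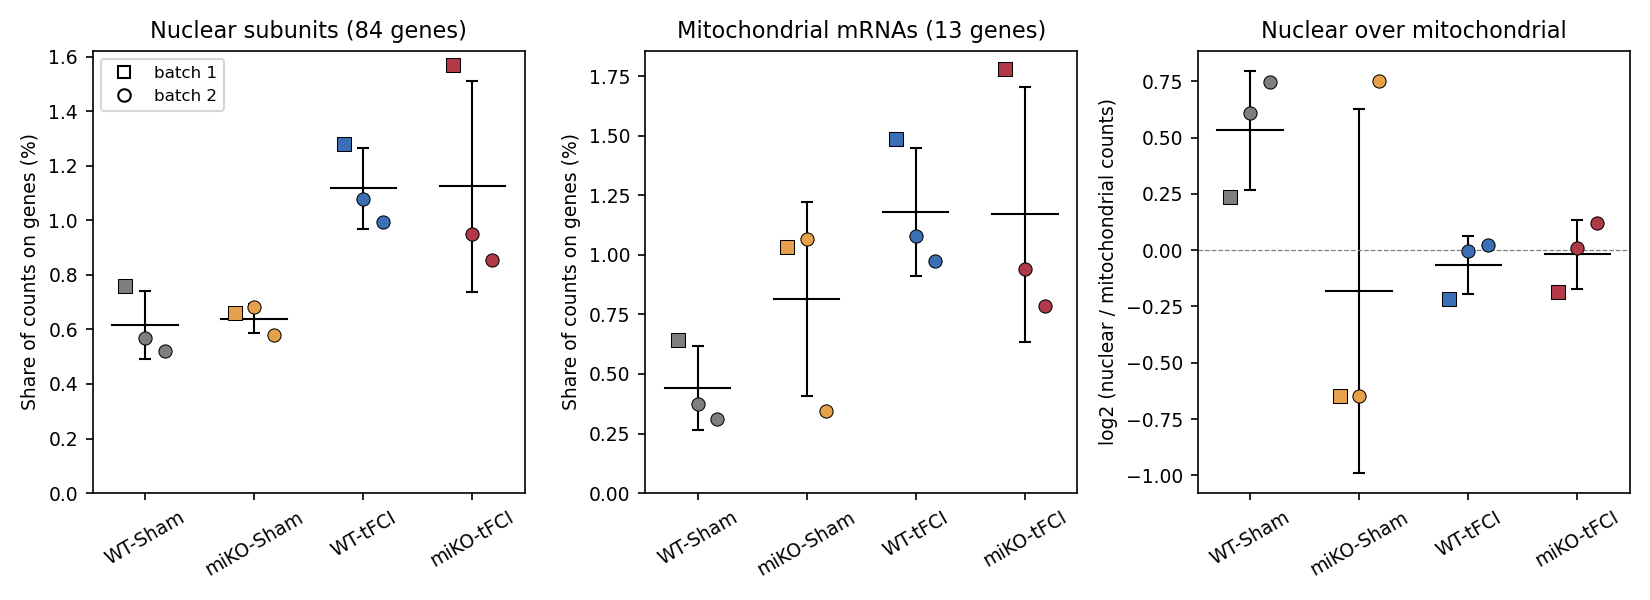
Share of the counts on genes (percent) taken by nuclear members and by mitochondrial mRNAs, and the log2 ratio of their counts, for each library by group; squares are batch 1, circles are batch 2, and bars are mean ± SD of 3 libraries. The nuclear shares of Sham and tFCI libraries do not overlap, and miKO-Sham replicates 1 and 2, at 1.03% and 1.07%, stand apart from replicate 3, at 0.344%, in the mitochondrial share.

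The first comparison asked how the subunits respond to stroke in WT microglia. Of the 79 nuclear subunits tested, 70 rose and 0 fell in WT-tFCI vs. WT-Sham, with a median of 1.03 on the log2 scale, and among the 11 mitochondrial subunits 10 rose and 0 fell, with a median of 1.4 (edgeR quasi-likelihood test, Benjamini-Hochberg adjusted p under 0.05 over all 16451 genes tested). Among all genes tested, 23.5% were called higher and 15.4% lower, and the median was 0.02. Every complex took part: 28 of 35 nuclear subunits of complex I rose (median 0.83), 3 of 4 of complex II (0.53), 7 of 8 of complex III (1.04), 16 of 16 of complex IV (1.42) and 16 of 16 of complex V (1.12). The fold changes held within each batch, with a nuclear median log2 difference of 0.79 in batch 1 and 1.16 in batch 2 and a mitochondrial median of 1.17 and 1.66. Microglial markers were lower and monocyte markers and proliferation genes higher in the same libraries (values above), and this was not separated from the rise.

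Complex I is an L-shaped enzyme whose core subunits, 7 of them nuclear, carry the flavin, the iron-sulfur clusters and the proton path, while its accessory subunits support assembly and stability. The nuclear core subunits moved least. Ndufs1, the large iron-sulfur subunit, was at 33.9, 66.0 and 70.0 CPM in WT-Sham and 54.3, 64.4 and 60.3 CPM in WT-tFCI, and its log2 fold change of 0.12 did not pass (adjusted p = 0.621). Ndufv1, which binds NADH and the flavin, was at 76.9, 64.3 and 73.0 CPM and at 88.6, 76.2 and 78.3 CPM (0.18, adjusted p = 0.327). The groups overlapped for both genes. Among the 7 core subunits, 4 rose, with a median of 0.41 over the 7. Examples are Ndufv2, a flavin-arm iron-sulfur subunit, which rose by 0.46, and Ndufs3, which rose by 0.41. Of the 28 accessory subunits, 24 rose, with a median of 1.00.

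Ndufa1 and Ndufc1, small membrane-arm proteins, were among the accessory subunits that moved most. Ndufa1 went from 87.9, 53.3 and 37.8 CPM in WT-Sham to 250, 178 and 153 CPM in WT-tFCI (log2 fold change 1.74, SE 0.26, adjusted p = 0.000117). Ndufc1 went from 29.8, 15.3 and 11.1 CPM to 72.1, 50.9 and 53.9 CPM (1.73, SE 0.22, adjusted p = 2.6e-05). All tFCI libraries exceeded all Sham libraries for both genes. Ndufs5, an accessory subunit despite its name, rose by 1.41 and Ndufa2 by 1.19. The accessory subunits that did not pass were Ndufa9 (0.27), Ndufb10 (0.36), Ndufc2 (0.45) and Ndufb2 (0.82), the last at under 13 CPM in every library.

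Complex II also feeds the citric acid cycle, and its catalytic flavoprotein Sdha was the member that did not pass, at 110, 160 and 199 CPM in WT-Sham and 156, 191 and 187 CPM in WT-tFCI (0.21, adjusted p = 0.355). The iron-sulfur subunit Sdhb rose by 0.63 (SE 0.13, adjusted p = 0.00176), and the heme-binding membrane anchors Sdhc and Sdhd rose by 0.75 (SE 0.13, adjusted p = 0.000338) and 0.43 (SE 0.12, adjusted p = 0.00922).

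In complex III, the small subunits Uqcr11 and Uqcr10 rose most. Uqcr11 was at 138, 54.6 and 47.6 CPM in WT-Sham and 245, 180 and 146 CPM in WT-tFCI (1.36, SE 0.23, adjusted p = 0.000311). The Rieske iron-sulfur protein Uqcrfs1 rose by 0.67 and the core protein Uqcrc1 by 0.55, and the other core protein, Uqcrc2, did not pass (0.29, adjusted p = 0.0791). mt-Cytb, the mitochondrially encoded cytochrome b at the centre of the complex, rose from 1036, 644 and 524 CPM to 2325, 1656 and 1457 CPM (1.33, SE 0.29, adjusted p = 0.00256).

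Complex IV held the largest fold changes, and they belonged to its tissue-restricted forms. Cox6a2, Cox7a1 and Cox8b are known as heart and skeletal muscle forms and Cox6b2 as a testis form, and all were rare in these cells. Cox6a2 (chr7:128205435-128206387) was at 1.56, 0.784 and 0.616 CPM in WT-Sham and at 13.9, 16.3 and 10.97 CPM in WT-tFCI (3.82, SE 0.38, adjusted p = 2.95e-06). The groups were well apart, at 6 to 13 counts per WT-Sham library against 90 to 141 per WT-tFCI library. Its widespread partner Cox6a1 was at 200, 102 and 83.0 CPM and at 367, 313 and 299.8 CPM (1.43), so that Cox6a2 stayed far below it. Cox7a1 rose by 2.95 (SE 0.62, adjusted p = 0.00174) beside Cox7a2 by 1.42. Cox6b2 rose by 2.24 (SE 0.59, adjusted p = 0.00779) beside Cox6b1 by 1.36. Cox8b rose by 2.58 (SE 0.90, adjusted p = 0.0347) beside Cox8a by 1.05, but Cox8b was at 7.18 CPM in WT-tFCI replicate 1 and at 0.808 and 0.244 CPM in replicates 2 and 3, and its log2 difference was 2.97 in batch 1 and 0.47 in batch 2. The call for Cox8b was lost without WT-tFCI replicate 1 (1.77, adjusted p = 0.257) and without WT-Sham replicate 1 (1.62, adjusted p = 0.278).

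The abundant forms rose together. Cox4i1, the main form of the largest nuclear subunit, was at 292, 167 and 135 CPM in WT-Sham and 573, 475 and 424 CPM in WT-tFCI (1.36, SE 0.19, adjusted p = 5.8e-05). Cox5a rose by 1.32 (SE 0.13, adjusted p = 3.23e-06), Cox7b by 1.61, Cox6c by 1.57 and Ndufa4, a complex IV subunit named for complex I, by 1.50. Cox7a2l, a relative of Cox7a2 that joins complexes III and IV into supercomplexes, had the smallest change of the complex at 0.66. mt-Co1, which holds the oxygen-reducing site, rose from 1240, 780 and 681 CPM to 3552, 2602 and 2313 CPM (1.67, SE 0.28, adjusted p = 0.000337). mt-Co2 and mt-Co3 rose by 1.38 and 1.31 on few counts.

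In the ATP synthase, Atp5mpl, a small proteolipid of the membrane part, moved most, from 47.2, 28.6 and 25.8 CPM in WT-Sham to 147, 107 and 93.7 CPM in WT-tFCI (1.80, SE 0.21, adjusted p = 1.33e-05). The catalytic subunits moved less: Atp5b was at 426, 472 and 448 CPM and at 880, 805 and 790 CPM (0.87, SE 0.13, adjusted p = 0.00015), and Atp5a1 rose by 0.61. Atp5g1, Atp5g2 and Atp5g3 encode the same c-ring protein behind different leader peptides, and rose by 1.35, 1.05 and 1.19. mt-Atp6, the proton channel subunit, rose by 1.96 (SE 0.49, adjusted p = 0.0059) at 1.64 to 14.6 CPM. The mitochondrial subunits of complex I rose by 1.39 (mt-Nd1), 1.34 (mt-Nd2), 1.4 (mt-Nd4), 1.73 (mt-Nd5) and 1.73 (mt-Nd6), and mt-Nd3, at 3.14 to 15.3 CPM, was the member that did not pass (1.42, adjusted p = 0.0662).

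**Figure D3:**
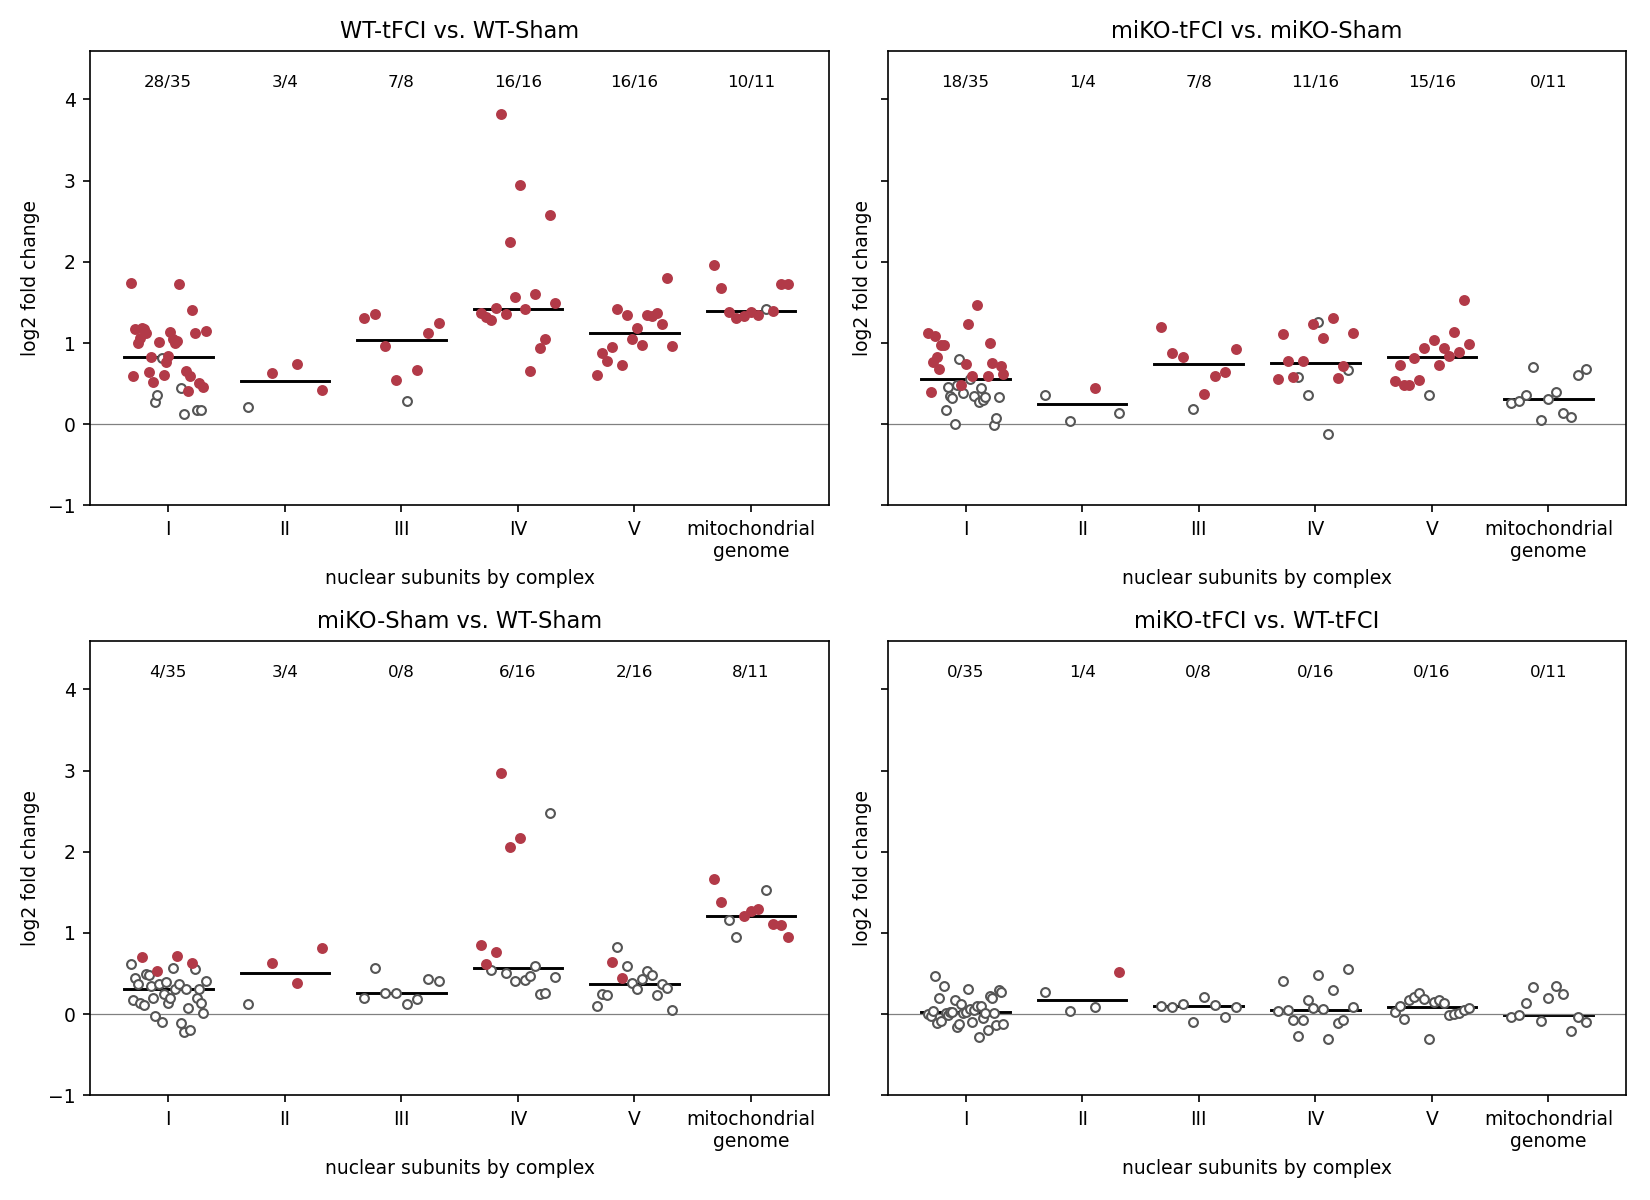
Log2 fold change of each tested subunit (points) in 4 comparisons, for nuclear subunits of complexes I to V and for the mitochondrial genome; filled points passed at an adjusted p under 0.05, bars are medians, and the numbers above give called of tested. In WT-tFCI vs. WT-Sham 70 of 79 nuclear and 10 of 11 mitochondrial subunits rose, whereas in miKO-tFCI vs. WT-tFCI Sdhd was the 1 member that passed in the fit without a replicate block.

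Within the nuclear members, the size of the change followed the length of the coding sequence. Spearman's correlation between coding length and log2 fold change was -0.75 over the 79 nuclear members for the WT groups (tFCI vs. Sham) and -0.61 for the miKO groups, and it was -0.12 and -0.07 over 12942 other protein-coding genes. These are correlations across genes of the same libraries, given as descriptions. The 22 members with at most 300 coding bases had a median of 1.39 and all 22 rose in WT mice, whereas 43.9% of the 253 other genes of that length rose, with a median of 0.61. Between 600 and 900 bases, the median was 0.63 for 9 members and 0.16 for 1818 other genes. Above 1500 bases, 2 of 4 members rose with a median of 0.41, against -0.06 for 5898 other genes. The other short genes were thus also higher after tFCI, but members exceeded other genes of like length in each of 6 length classes. In miKO mice the medians of the members were 0.95, 0.78, 0.49, 0.48, 0.34 and 0.49 from the shortest class to the longest, beside 0.40, 0.33, 0.29, 0.19, 0.09 and 0.02 for other genes. Sham libraries showed the same kind of spread, since Atp5e (156 coding bases) was at 77.2 CPM in WT-Sham replicate 1 and at 28.0 and 22.9 CPM in replicates 2 and 3, while Ndufs1 (2181 coding bases) ran the other way. What sets this relation was not tested.

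**Figure D4:**
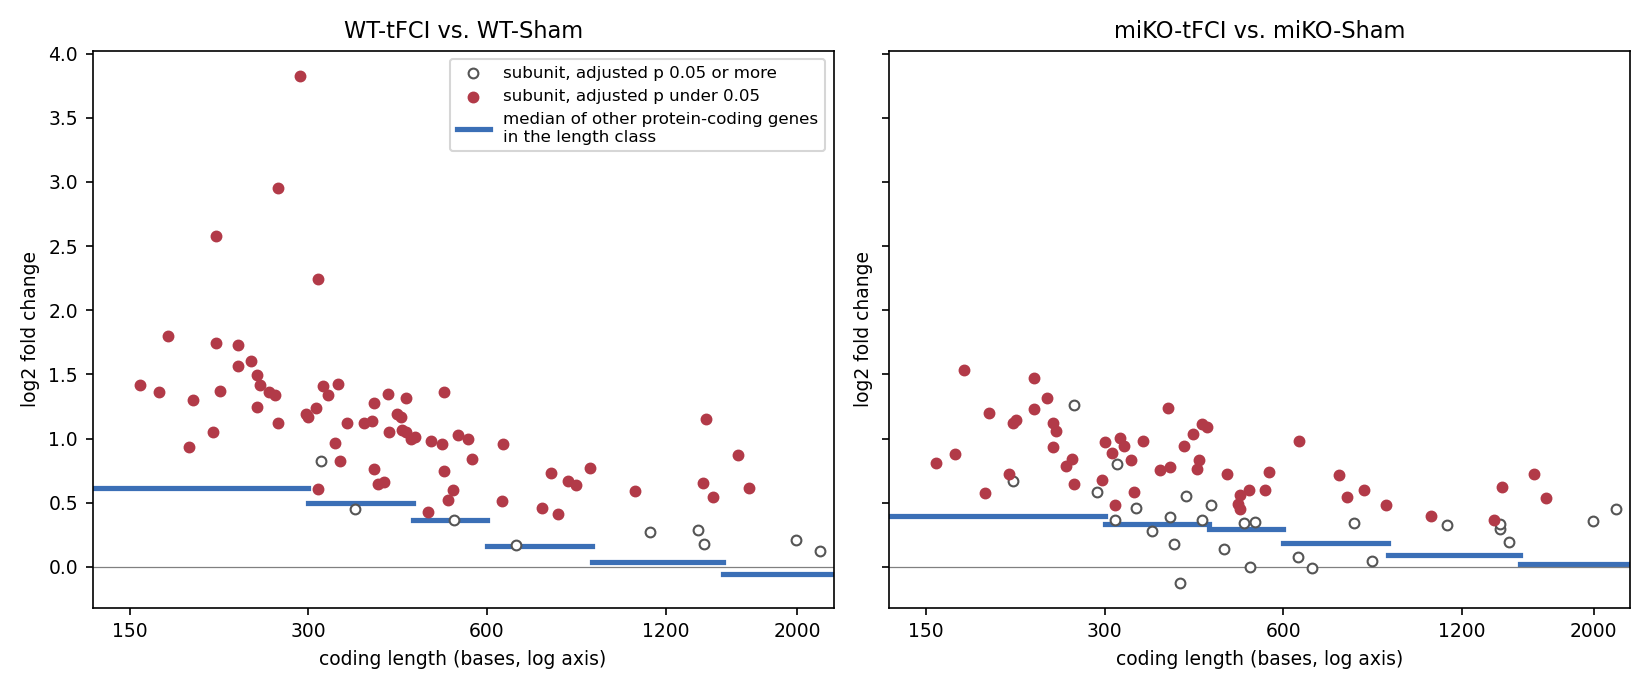
Coding length in bases (x axis, log scale) against log2 fold change for the 79 nuclear subunits (points; filled where adjusted p is under 0.05), with the median of other protein-coding genes in 6 length classes (blue lines). Short subunits lie highest, and the members' medians exceed the blue lines in each class.

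The second comparison asked for the same response in miKO microglia. In miKO-tFCI vs. miKO-Sham, 52 of 79 nuclear subunits rose and 0 fell (median log2 fold change 0.65), and of the 11 mitochondrial subunits 0 passed in either direction (median 0.31). Among all genes, 24.5% were called higher and 17.7% lower. By complex, 18 of 35 nuclear subunits rose in complex I (median 0.55), 1 of 4 in complex II (0.25), 7 of 8 in complex III (0.74), 11 of 16 in complex IV (0.75) and 15 of 16 in complex V (0.83). The nuclear median difference was 1.11 in batch 1 and 0.47 in batch 2. The number of nuclear subunits called fell to 31 without miKO-Sham replicate 1 and to 34 without miKO-tFCI replicate 1.

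Atp5mpl changed most among nuclear subunits, from 49.0, 50.5 and 24.2 CPM in miKO-Sham to 168, 110 and 87.7 CPM in miKO-tFCI (1.53, SE 0.21, adjusted p = 5.35e-05). Among those that passed, Ndufc1 followed with 1.47, then Cox7b (1.31), Ndufb6 (1.24) and Cox6c (1.23). The smallest changes that passed were those of Ndufb3, Atp5c1, Sdhc, Ndufa10 and Uqcrc2 (0.48, 0.48, 0.45, 0.39 and 0.37). Among the nuclear core subunits of complex I, Ndufv2 alone rose (0.71). Cox6a2 was at 8.05, 10.3 and 4.48 CPM in miKO-Sham and 14.4, 10.4 and 9.76 CPM in miKO-tFCI (0.59, adjusted p = 0.147), and Cox7a2l had a value of -0.12 (adjusted p = 0.596).

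The mitochondrial mRNAs depended on which Sham libraries were used. mt-Co1 was at 2988, 2996 and 965 CPM in miKO-Sham and at 3868, 2297 and 2389 CPM in miKO-tFCI (0.29, adjusted p = 0.426). miKO-Sham replicates 1 and 2 thus lay within the range of the tFCI libraries and replicate 3 lay below it. The other mitochondrial members ranged from 0.05 (mt-Cytb) to 0.70 (mt-Co3). Without miKO-Sham replicate 2, 10 of the 11 mitochondrial subunits rose with a median of 1.11. Without both replicates 1 and 2, which leaves miKO-Sham with 1 library that is assumed to vary like the libraries of the other groups, 11 of 11 rose with a median of 1.67, and with these 2 libraries summed into 1 the number was 8. With library totals in place of TMM factors, the median of all genes moved from 0.03 to 0.16, and relative to it the nuclear median was 0.61 with TMM and 0.63 with library totals.

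The third comparison took the knockout without stroke. In miKO-Sham vs. WT-Sham, 15 of 79 nuclear subunits (19.0%) rose and 0 fell, with a median of 0.38, and 8 of 11 mitochondrial subunits rose and 0 fell, with a median of 1.21. Among all genes, 9.94% were called higher and 8.12% lower. The nuclear values depend on scaling: with library totals in place of TMM factors, the median of all genes moved from 0.04 to -0.23, the share of all calls that were higher from 55.0% to 24.1%, and the nuclear median from 0.38 to 0.10, with 5 nuclear members higher and Ndufs4 lower. Relative to all genes, the nuclear median was 0.34 with TMM and 0.33 with library totals, and the mitochondrial median 1.17 and 1.14.

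The mitochondrial calls rested on miKO-Sham replicates 1 and 2. mt-Co1 was at 1240, 780 and 681 CPM in WT-Sham and at 2988, 2996 and 965 CPM in miKO-Sham (1.38, adjusted p = 0.00287), mt-Nd1 at 1046, 505 and 427 CPM and at 1935, 2037 and 589 CPM (1.27, adjusted p = 0.0109), and mt-Cytb at 1036, 644 and 524 CPM and at 2158, 2175 and 662 CPM (1.21, adjusted p = 0.00969). In each case, replicate 3 lay within the range of WT-Sham. mt-Nd2 (1.30), mt-Nd4 (1.11), mt-Nd5 (1.10), mt-Nd6 (0.95) and mt-Atp6 (1.66) also passed, and mt-Nd3 (1.53), mt-Co2 (1.16) and mt-Co3 (0.95) did not. Without replicates 1 and 2, with replicate 3 as the 1 library of miKO-Sham and the spread taken from the other groups, 0 of 11 passed with edgeR, the median was 0.02, and mt-Co1 stood at 0.37 (log2; adjusted p = 0.315). With both summed into 1 library, mt-Co1 alone passed (0.89, adjusted p = 0.0123). The number was 1 without WT-Sham replicate 3 or without miKO-Sham replicate 2, and 11 without miKO-Sham replicate 3.

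The nuclear members that passed were Cox6a2, Cox7a1, Cox6b2, Cox4i1, Sdhd, Cox6a1, Ndufb9, Ndufa2, Atp5d, Ndufs5, Sdhb, Cox5a, Ndufb10, Atp5f1 and Sdhc. Their number was 5 without WT-Sham replicate 3 or miKO-Sham replicate 2 and 24 without miKO-Sham replicate 1. Within batch 1 the nuclear median difference was 0.01, with 40 of 79 above 0, and within batch 2 it was 0.54, with 76 above 0. This split takes the batch label of miKO-Sham replicate 2 as given. The CPM of the groups did not overlap for 15 nuclear members (19.0%), each higher in miKO-Sham, against 17.0% of all genes tested, which is close to the background, and for 0 mitochondrial members.

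Some nuclear members were separate in all libraries. Sdhd (chr9:50596357-50603812) was at 82.1, 83.6 and 93.3 CPM in WT-Sham and at 158, 146 and 151 CPM in miKO-Sham (0.81, SE 0.12, adjusted p = 0.000168). Sdhb (chr4:140961203-140979193) was at 179, 150 and 139 CPM and at 234, 247 and 238 CPM (0.63, SE 0.13, adjusted p = 0.0037). Cox6a2 was at 1.56, 0.784 and 0.616 CPM and at 8.05, 10.3 and 4.48 CPM (2.97, adjusted p = 8.08e-05). For each of these genes every miKO-Sham replicate lay above every WT-Sham replicate. Setting replicate 3 alone against WT-Sham, a fit with 1 miKO-Sham library whose spread is borrowed from the other groups, the log2 fold changes were 0.80 for Sdhd (adjusted p = 0.00942), 0.72 for Sdhb (adjusted p = 0.0235) and 2.35 for Cox6a2 (adjusted p = 0.00595). Cox6b2 also passed in that fit with 1 library (2.54, adjusted p = 0.0351), as did Cox8b (3.73, adjusted p = 0.0389), the latter at 1 to 11 counts per Sham library. Cox4i1 (0.60, adjusted p = 0.124) and Cox5a (0.46, adjusted p = 0.156) did not. Sdha, the partner of Sdhb, was at 110, 160 and 199 CPM in WT-Sham and at 148, 145 and 211 CPM in miKO-Sham (0.13, adjusted p = 0.667).

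The fourth comparison took the knockout after stroke. In miKO-tFCI vs. WT-tFCI, 1 of 79 nuclear subunits rose, 0 fell and the median was 0.05, and of the mitochondrial subunits 0 of 11 passed in either direction, with a median of -0.01. Among all genes, 4.50% were called higher and 5.40% lower. With library totals, the nuclear median was -0.04 and the share of all calls that were higher went from 45.5% to 30.2%. Within batches, 76 of 79 nuclear subunits lay above 0 in batch 1 (median difference 0.30) and 27 of 79 in batch 2 (-0.08). At this replication a general difference between the tFCI groups was not detectable.

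The member that passed was Sdhd, at 119, 114 and 114 CPM in the WT-tFCI libraries beside 171, 158 and 172 CPM in those of miKO-tFCI (0.52, SE 0.11, adjusted p = 0.0107). The groups did not overlap, and the log2 difference was 0.52 in both batches. The call was lost when any WT-tFCI replicate was left out, although the log2 fold change stayed between 0.42 and 0.56. Sdhd was thus higher in miKO than in WT libraries in both conditions, by 0.81 and 0.52, and higher after tFCI in WT mice by 0.43, while its value of 0.14 in miKO mice did not pass (adjusted p = 0.351). The difference between these responses did not pass either (-0.29, adjusted p = 0.394). An alternative edgeR fit took the replicate number as a block, although pairing of same-numbered libraries is not established. In it 2 nuclear members passed, Sdhd (0.52, adjusted p = 0.0122) and Cox5a (0.41, adjusted p = 0.0468). Cox5a was at 125, 110 and 105 CPM in the WT-tFCI libraries and at 170, 152 and 132 CPM in those of miKO-tFCI, without overlap. Its adjusted p was 0.0576 without the block. The other members of complex II ran from 0.04 to 0.27 in miKO-tFCI vs. WT-tFCI.

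**Figure D5:**
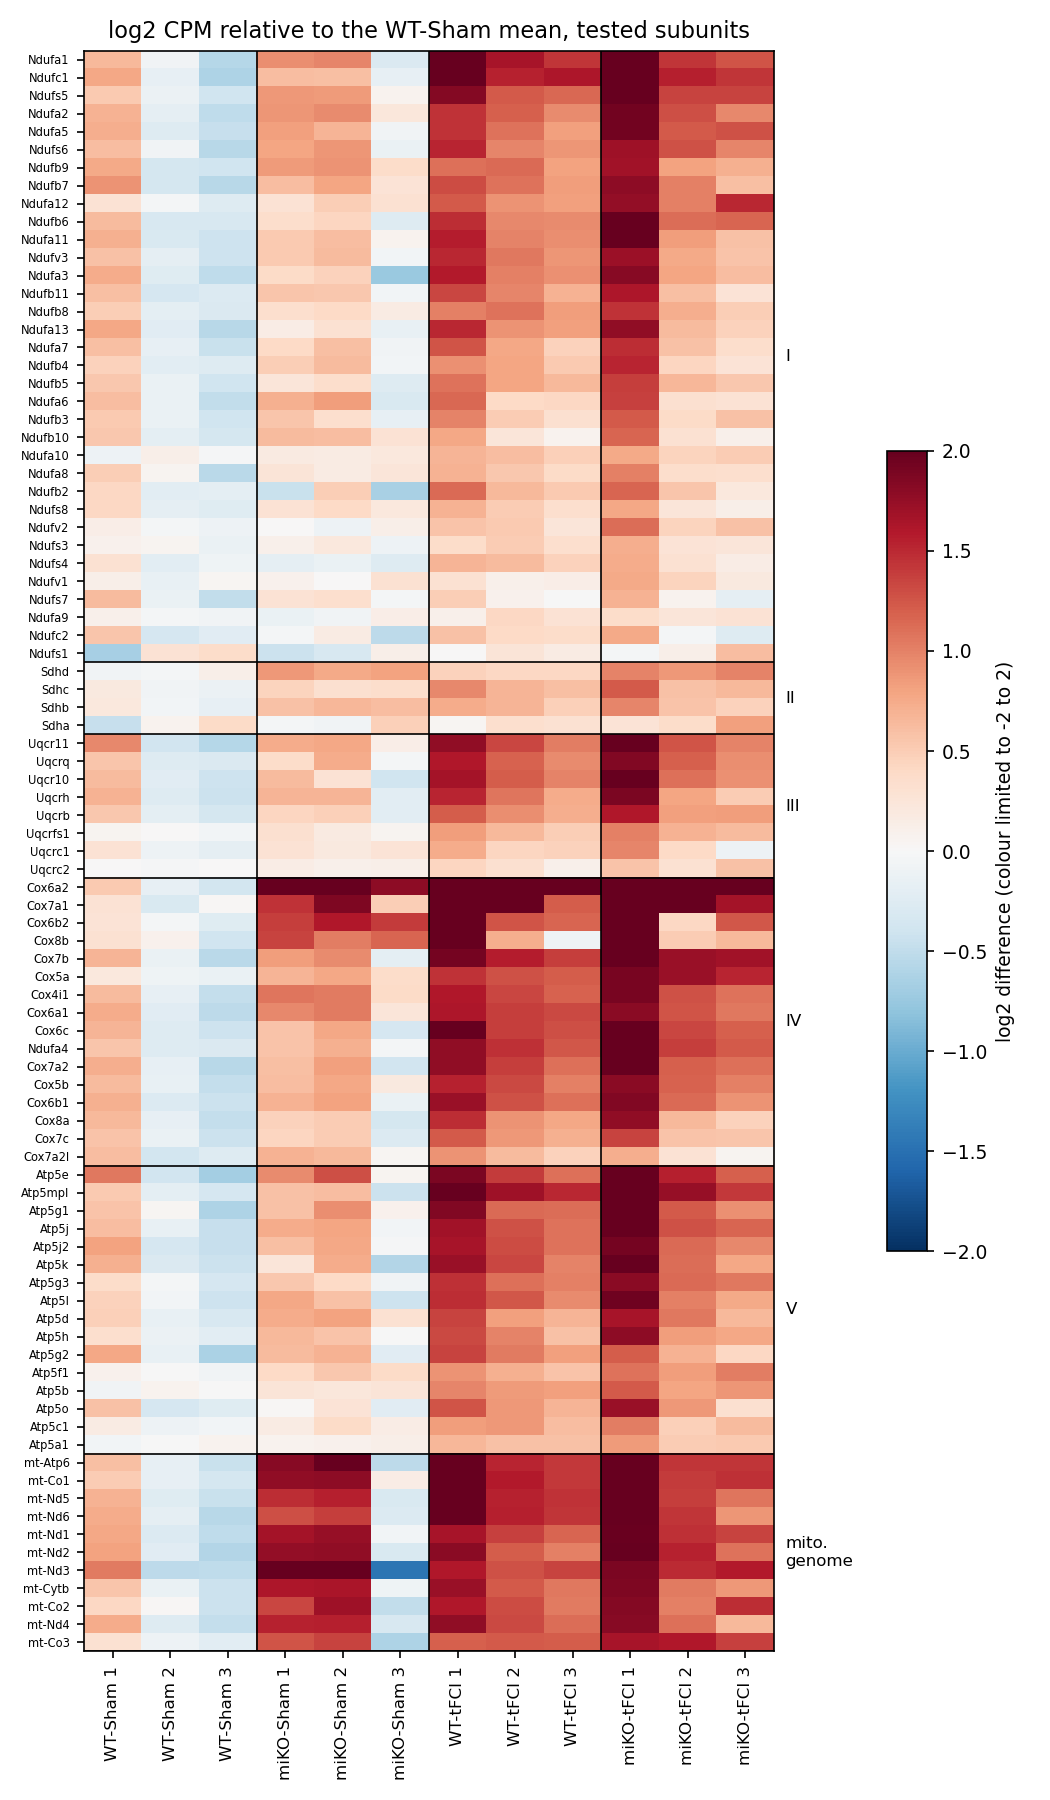
Log2 CPM (plus 0.5) of the tested subunits, 1 of them not shown, in each of the 12 libraries relative to the WT-Sham mean, ordered by complex, with the colour limited to -2 and 2. tFCI libraries are red throughout most rows, miKO-Sham replicates 1 and 2 are red in the mitochondrial block where replicate 3 is not, and Sdhd is higher in each miKO-Sham library.

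The interaction asked whether stroke changed the subunits differently in miKO and WT mice. Of 79 nuclear subunits, 0 had a higher and 1 a lower response in miKO mice (median -0.34), and of 11 mitochondrial subunits 0 passed in either direction, with a median of -1.13 and 0 of 11 above 0. Among all genes, 1.25% were called higher and 2.57% lower. With library totals, the nuclear median was -0.14 and the share of all calls that were higher went from 32.8% to 51.1%. The member was Cox6a2 (-3.24, SE 0.50, adjusted p = 0.00216), which rose from 0.616 to 1.56 CPM in WT-Sham to 10.97 to 16.3 CPM in WT-tFCI but started from 4.48 to 10.3 CPM in miKO-Sham. Without miKO-Sham replicates 1 and 2, which leaves 1 library in that group, the Cox6a2 interaction was -2.63 (adjusted p = 0.0326), and with both summed it was -3.00 (adjusted p = 0.00282). The 841 counts of Cox6a2 over all libraries stand beside 67 counts of Itgad, whose exons overlap it on the other strand. For mt-Co1 the value was -1.39 (adjusted p = 0.0662). Without miKO-Sham replicate 3, 10 mitochondrial subunits passed, each lower, and without replicates 1 and 2 (1 library left) the mitochondrial median was 0.03.

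Genes that build and supply the complexes were examined through lists of the pathway. Assembly factors insert cofactors and join subunits without staying in the complex. The lists are given beside the shares of all genes in WT-tFCI vs. WT-Sham, 23.5% called higher and 15.4% lower. The complex IV assembly genes that rose (21.1%) and the complex I assembly genes that fell (13.3%) were near these shares. In WT-tFCI vs. WT-Sham, 0 of 15 complex I assembly genes rose and 2 fell (median -0.02; Tmem186 -0.78, Foxred1 -0.37), 1 of 10 for complexes II and III rose (Uqcc2, 1.24; median -0.15), and 4 of 19 for complex IV rose and 1 fell (median -0.08; Coa5 0.85, Cox20 -0.49). Of 4 genes of ATP synthase assembly and inhibition 1 rose, the inhibitor Atpif1 (0.87). Of 16 genes for replication and transcription of mitochondrial DNA 0 rose and 4 fell (median -0.32), among them the exonuclease Mgme1 (-1.03) and the single-strand binding protein Ssbp1 (-0.60), and the packaging and transcription factor Tfam had a value of -0.32 that did not pass (adjusted p = 0.143). Of 19 genes of mitochondrial RNA processing 3 rose and 0 fell (median -0.09), with Rexo2 at 0.80. Of the 11 mitochondrial mRNAs tested, 10 rose, and how this relates to the lists was not tested. Among those 10, mt-Co2, mt-Co3 and mt-Atp6 had few counts and were not read as transcript levels.

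Among all genes, 24.5% were called higher and 17.7% lower in miKO-tFCI vs. miKO-Sham. In that comparison, the list numbers that rose and fell were 1 and 1 of 15 for complex I assembly (Ndufaf5 1.03, Foxred1 -0.53), 1 and 0 of 10 for complexes II and III (Uqcc2 0.74) and 1 and 3 of 19 for complex IV (Coa3 0.45, Taco1 -0.82). They were 1 and 0 of 4 for ATP synthase assembly (Atpif1 0.68), 0 and 6 of 16 for mitochondrial DNA (Polg2 -1.09, Ssbp1 -0.47) and 4 and 0 of 19 for RNA processing (Rexo2 0.69). In miKO-Sham vs. WT-Sham, none of the genes of complex I, II, III or V assembly passed with edgeR, 2 of complex IV assembly rose (Surf1 0.60, Coa5 0.81), and the polymerase subunits Polg and Polg2 went opposite ways (-0.56 and 0.70). The complex IV assembly genes that rose in miKO-Sham vs. WT-Sham (10.5%) were close to the 9.94% of all genes called higher. In miKO-tFCI vs. WT-tFCI, Tmem126b of complex I assembly passed (0.57), 1 of 15 (6.67%) beside 4.50% of all genes called higher.

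Factors that are known to regulate nuclear subunit genes were mostly below 0 after tFCI. Of 12 tested, 3 were above 0 in WT mice (median -0.10) and 4 in miKO mice (median -0.39). For WT mice 8.33% passed as higher and 16.7% as lower, beside 23.5% and 15.4% of all genes. For miKO mice these shares were 8.33% and 33.3%, beside 24.5% and 17.7% of all genes. In WT mice after tFCI, Hif1a rose (0.99), Nrf1 (-0.51) and Gabpb1 (-0.42) fell, and the other 9 of 12 tested did not pass. In miKO mice, Hif1a rose (1.20) and Myc (-1.12), Gabpb1 (-0.80), Crtc2 (-0.64) and Esrra (-0.45) fell. Myc was higher in miKO-Sham than in WT-Sham (0.56), and its response to tFCI differed between genotypes (interaction -1.0, adjusted p = 0.0148).

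Neighbouring pathways are given beside the 23.5% of all genes that rose in WT mice and the 24.5% that rose in miKO mice. Of 21 glycolysis genes, 13 rose (61.9%) and 1 fell in WT mice after tFCI (median 0.90), with pyruvate kinase Pkm at 2.13 and hexokinase Hk2 at -0.44, and 15 rose (71.4%) and 4 fell in miKO mice (median 0.89), with Aldoc at 2.17 and Hk2 at -1.13. Of 22 genes of pyruvate dehydrogenase and the citric acid cycle, 9 rose (40.9%) and 2 fell in WT mice (median 0.37), with mitochondrial isocitrate dehydrogenase Idh2 at -0.60, and 13 rose (59.1%) and 2 fell in miKO mice (median 0.49), with Pdha1 at 1.27. Of 18 genes of import and channels, 10 rose in WT mice (55.6%; median 0.39; Timm23 0.89) and 8 in miKO mice (44.4%; median 0.34; the adenine nucleotide carrier Slc25a4 1.28). Of 77 mitochondrial ribosomal protein genes, 29 rose (37.7%) and 0 fell in WT mice (median 0.32) and 24 rose (31.2%) and 2 fell in miKO mice (median 0.26). Cytochrome c (Cycs), which carries electrons from complex III to complex IV and lies outside the name rule, rose by 1.30 in WT mice and 0.86 in miKO mice.

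The genes of cytosolic ribosomal proteins, which are also short, were also examined. Of 81 tested, 73 rose (90.1%, beside 23.5% of all genes) and 0 fell in WT-tFCI vs. WT-Sham (median 1.24). For miKO-tFCI vs. miKO-Sham, 7 rose (8.64%, beside 24.5% of all genes) and 1 fell (median 0.30). For miKO-Sham vs. WT-Sham, 39 rose (48.1%, beside 9.94% of all genes) and 0 fell (median 0.84). Their share of counts on genes was 1.38%, 0.678% and 0.549% in WT-Sham and 1.42%, 1.49% and 0.721% in miKO-Sham. The share of miKO-Sham replicate 3 thus lay within the range of WT-Sham. Calls for ribosomal protein genes were not repeated without miKO-Sham replicates 1 and 2. In miKO-tFCI vs. WT-tFCI, 0 passed with edgeR, with a median of -0.14. In miKO mice after tFCI, 52 of 79 nuclear respiratory subunits thus rose beside 7 of 81 ribosomal protein genes, a difference that was not tested.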

How the data were processed

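The authors deposited 1 table of raw read counts per gene for each library. Per the submitters' processing notes, the tools were FastQC 0.11.9, Trim Galore, HISAT2 2.2.1, SAMtools and HTSeq 1.99.2, with mm10/GRCm38.p6; the strand setting of the counting is not given in the sources used here. Rows that name no gene were left out. The members and lists were chosen with earlier results of these data known.

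Counts were tested with edgeR 4.0.16 in R 4.3.3 (quasi-likelihood, TMM factors of 0.864 to 1.11, default filter on low counts, group and batch as terms, prior count 2), and p-values were Benjamini-Hochberg adjusted over 16451 genes, called under 0.05. The common biological coefficient of variation was 0.199 with 7 residual degrees of freedom. The procedure was tested on simulated data with changes in WT-tFCI alone and no batch effect. That setting differs from these libraries, so it cannot show how the scaling or the error rate holds here. Within-batch differences used 0.5 CPM as pseudocount. Gene types, exons and coding lengths came from GENCODE M21. Promoters and their motifs came from RefSeq. Whether replicate numbers pair the samples was checked by the correlation of deviations from the group means: the same-numbered libraries of WT-tFCI and miKO-tFCI correlated at 0.391 to 0.720, and in each other comparison the pair of replicates 2 stayed below 0.1. Libraries of different number and different group correlated at -0.569 to 0.467. Same-numbered libraries also share their batch label, so this check cannot show pairing. Alternatives changed the scaling, filter, tool (DESeq2 1.42.0), terms or libraries. Named genes were the 13 mitochondrial mRNAs, the 5 largest and 5 smallest called changes in each comparison, isoform pairs, the highest member of each complex, untested members and the extremes of each list. Other members, among them Sdha, Ndufs1, Ndufv1, Atp5b and those that did not pass, were chosen after their values were seen. Values of 1 member are not reported here.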

Additional observations from a re-analysis of the deposited data

Results flagged for a closer look

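The response of Cox6a2, the muscle form of a complex IV subunit, differed between genotypes by a test of the difference itself: its interaction was -3.24 on the log2 scale (SE 0.50, adjusted p = 0.00216 by edgeR). This was 1 of 79 nuclear members called lower in the interaction (1.27%), beside 2.57% of all genes, so the number of members called was not above the background. In log2 fold change, Cox6a2 rose by 3.82 in WT-tFCI vs. WT-Sham, rose by 2.97 in miKO-Sham vs. WT-Sham, while miKO-tFCI vs. miKO-Sham gave 0.59, which did not pass. Without miKO-Sham replicates 1 and 2, which leaves 1 library in that group with its spread taken from the others, the interaction was -2.63 (adjusted p = 0.0326). Counts were 6 to 13 per library in WT-Sham, 35 to 74 in miKO-Sham, 90 to 141 in WT-tFCI and 79 to 139 in miKO-tFCI.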

How the results depend on the processing

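The rise of nuclear and mitochondrial subunits in WT-tFCI vs. WT-Sham was called in 60 to 73 and 8 to 11 members when single libraries were left out. The numbers of calls that moved by over 1.5 times are given next (nuclear of 79, mitochondrial of 11), and the cause was not tested. Leaving out single libraries gave 31 to 62 nuclear and 0 to 10 mitochondrial calls in miKO-tFCI vs. miKO-Sham, 5 to 24 and 1 to 11 in miKO-Sham vs. WT-Sham, 0 to 2 and 0 to 0 in miKO-tFCI vs. WT-tFCI, and 1 to 3 and 0 to 10 in the interaction. In miKO-tFCI vs. miKO-Sham, nuclear calls were 32 with no batch term and 23 in batch 2 alone, and mitochondrial calls were 1 with library totals, 1 with the replicate block, 2 with every gene of at least 1 count, 11 without miKO-Sham replicates 1 and 2 and 8 with these summed (both chosen after seeing the data; the former leaves 1 miKO-Sham library, assumed to vary like the other groups). In miKO-Sham vs. WT-Sham, nuclear calls were 6 with library totals, 25 with every gene, 5 with no batch term, 26 in batch 2 alone, 5 without miKO-Sham replicates 1 and 2 and 6 with these summed, and mitochondrial calls were 4, 1, 4, 0 and 1 with library totals, no batch term, only the groups compared, without replicates 1 and 2, and summed. In miKO-tFCI vs. WT-tFCI, nuclear calls were 2 with DESeq2, DESeq2 size factors, at least 10 counts in every library, the replicate block, only the groups compared, and either handling of miKO-Sham replicates 1 and 2, and 0 with a fold threshold. In the interaction, nuclear calls were 4 with every gene, 0 with at least 10 counts and 6 in batch 2 alone, and mitochondrial calls 9 with every gene. Without miKO-Sham replicates 1 and 2, mt-Atp6 (-0.33) and mt-Nd4 (-0.046) turned lower in miKO-Sham vs. WT-Sham. For all 3 same-numbered pairs of WT-tFCI and miKO-tFCI the deviations correlated over 0.1, and in each other comparison at least 1 of 3 pairs did not. Genes called with the replicate block are therefore named in that comparison alone. Libraries of different number and group correlated at up to 0.467 and same-numbered ones share their batch label, so pairing is not established. The replicate block moved no other count by over 1.5 times. Similar nuclear copies of nuclear members were not examined. For 29 members an exon overlaps an exon on the other strand, and how many of their counts lie there was not examined. With 3 libraries a group small changes were not detectable.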
